A study of Mus musculus with 18 samples.

Results

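The genes described here are the main coregulators that nuclear receptors recruit: the coactivators Ncoa1, Ncoa2, Ncoa3, Crebbp, Ep300 and Med1, and the corepressors Ncor1 and Nrip1. These 8 genes were listed by name, and the rule that finds their probe sets uses no measured change. In the array annotation used here, 6 of the 8 had a probe set paired with their symbol alone, with 18 such probe sets between them, out of 17097 genes named this way in the whole series. Ncor1 and Ep300 had none and are not analysed here. Where a gene had several probe sets, the one with the highest mean over all arrays stood for it and the others served as a check. All 18 probe sets passed the filter on dim probe sets, which left 13190 genes to be tested.

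Nuclear receptors such as the glucocorticoid receptor bind DNA and then recruit coregulators through short leucine-rich motifs. The steroid receptor coactivators encoded by Ncoa1, Ncoa2 and Ncoa3 dock on the hormone-bound receptor and bring in the histone acetyltransferases CBP and p300, and the Mediator complex, with Med1 as its receptor-binding subunit, contacts RNA polymerase II. Corepressors such as NCOR1 and NRIP1 bring in histone deacetylases. In mouse macrophages the product of Ncoa2, also called GRIP1, is known to act with the glucocorticoid receptor both where genes are induced and where inflammatory genes are repressed.

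The study followed mouse macrophages grown from bone marrow with the growth factor CSF1, through a day of dexamethasone, a synthetic glucocorticoid. Marrow from 3 male C57BL/6 mice aged 10 weeks was cultured for 1 week in 10% serum with recombinant human CSF1 at 10000 U/ml, then replated under the same conditions. Each group had 3 arrays: a baseline, and 1, 2, 4, 10 and 24 h in 100 nM dexamethasone, 18 arrays in all. The labels give no genetic change in any group, no vehicle group and no untreated arrays at later times, so the drug and the time in culture cannot be told apart. Values below are log2 intensities of RMA-summarised Affymetrix probe sets. They compare arrays for the same probe set and do not rank genes against each other, since probe sets differ in how brightly they hybridise.

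The 10 macrophage markers checked all stood above the brightest of 23 nonspecific control probe sets (4.77), with means between 7.62 and 12.99. Of the markers of other cells, 0 of 6 for T cells, 1 of 4 for B cells, 0 of 3 for dendritic cells, 0 of 6 for stroma and 0 of 3 for erythroid cells did so. Of the neutrophil list 4 of 7 did, S100a8 at 8.62, S100a9 at 7.88, Ngp at 6.74 and Ltf at 4.89, while Camp, Mpo and Elane averaged 4.03, 4.00 and 3.45. At 24 h S100a9 averaged 7.12, Ngp 5.90 and Ltf 4.31, against 8.30, 7.03 and 5.20 at baseline. S100a8, the brightest of the list, averaged 8.56 at 24 h, against 8.66 at baseline. The log2 of the neutrophil list's summed intensity was 9.48 to 10.01 at 4 h, 9.13 to 9.67 at 10 h and 9.16 to 9.45 at 24 h, against 9.45 to 10.18 at baseline. Of the mast cell and basophil list 1 of 4 did, Kit at 5.68, while Cpa3 and Mcpt8 averaged 3.13 each; the list's log2 sum was 6.63 to 6.72 at 2 h, 6.10 to 6.52 at 4 h, 5.70 to 5.77 at 10 h and 5.64 to 6.07 at 24 h, against 6.67 to 6.69 at baseline. As a measure of RNA integrity, the Gapdh control signal at the 3' end minus that at the 5' end was, on the log2 scale, 0.17 ± 0.02, 0.15 ± 0.08, 0.19 ± 0.02, 0.20 ± 0.09 and 0.20 ± 0.03 at 1, 2, 4, 10 and 24 h, against 0.06 ± 0.03 at baseline (SD, n = 3 each). The same measure for the Actb control was 0.40 ± 0.03, 0.43 ± 0.02, 0.42 ± 0.03, 0.42 ± 0.02 and 0.43 ± 0.03 at these times, against 0.38 ± 0.02 at baseline. The part of these shifts in the results below was not tested. In bulk RNA, fewer cells of a type and less RNA per cell cannot be told apart. The drug's well-known target Fkbp5, a co-chaperone of the receptor, was 3.80 ± 0.07 (SE) higher at 10 h than at baseline on the log2 scale.

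Among the steroid receptor coactivators, Ncoa2 was higher from 4 h on, Ncoa3 was lower at 4 and 10 h, and Ncoa1 did not pass the test at any time. These calls come from the fit used here, which leaves out the replicate number. Ncoa2 (probe set 1435233_PM_at) read 8.46, 8.43 and 8.58 at baseline, 8.62, 8.59 and 8.46 at 1 h and 8.61, 8.50 and 8.56 at 2 h. It read 9.05, 9.06 and 9.11 at 4 h, 8.90, 9.21 and 9.15 at 10 h and 8.88, 8.88 and 9.03 at 24 h. Each of the 9 arrays from 4 h on lay above each of the 9 arrays of baseline, 1 h and 2 h, and the baseline, 1 h and 2 h arrays overlapped. The rise over baseline was 0.58 ± 0.07 (SE) at 4 h, or 1.5-fold, with a limma adjusted p of 3.32e-06. It was 0.60 ± 0.07 at 10 h, or 1.51-fold, with an adjusted p of 1.51e-06, and 0.44 ± 0.07 at 24 h, or 1.36-fold, with an adjusted p of 0.000119. At 1 and 2 h the change was 0.06 ± 0.07 each, with a 95% interval from -0.09 to 0.22 both times.

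The rise of Ncoa2 lay in a single step of the series. From 2 h to 4 h it rose by 0.52 ± 0.07 (adjusted p = 0.000126), a comparison of treated arrays only, in which 1.9% of all genes were called and 1.16% were called higher. The step from 4 h to 10 h was 0.02 ± 0.07 (95% interval -0.14 to 0.17), and that from 10 h to 24 h was -0.16 ± 0.07 (interval -0.31 to -0.01, adjusted p = 0.356). In the order of levels, 10 h and 4 h stood together within their spread, 24 h lay 0.14 below 4 h, 1 h lay 0.37 below 24 h, and 1 h, 2 h and baseline did not differ beyond their spread. Across this step the mast cell and basophil log2 sum was 6.10 to 6.52 at 4 h, against 6.63 to 6.72 at 2 h, the neutrophil sum 9.48 to 10.01, against 9.80 to 9.88, and the Gapdh measure of RNA integrity 0.19 ± 0.02, against 0.15 ± 0.08. The Actb measure was 0.42 ± 0.03 at 4 h, against 0.43 ± 0.02 at 2 h. The part of these measures in the step was not tested.

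**Figure D1:**
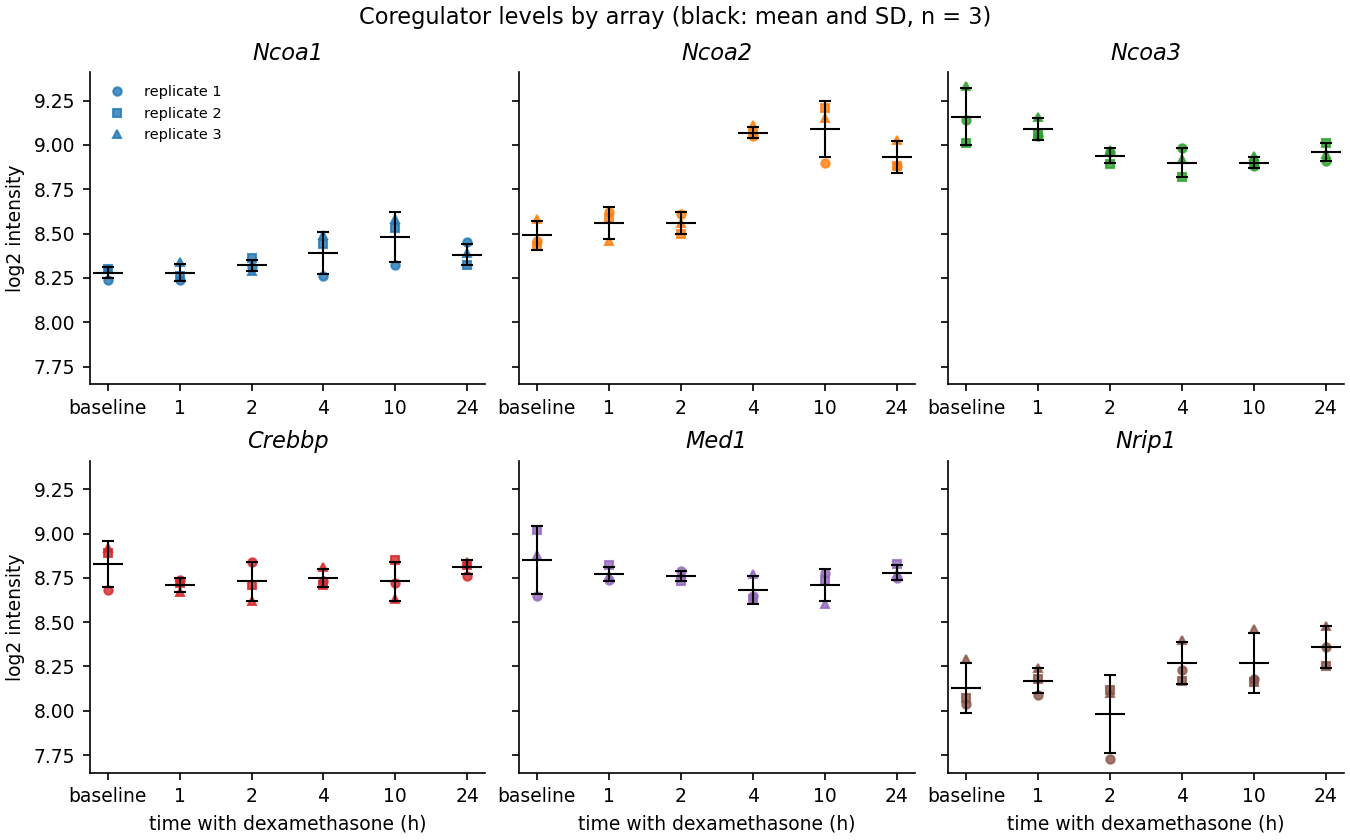
Log2 intensity of the 6 named coregulators on each array (symbols by replicate number; black lines are the mean and SD of 3 arrays) at baseline and at 1, 2, 4, 10 and 24 h of dexamethasone, 1 panel per gene. The 9 Ncoa2 arrays from 4 h on sit above the 9 earlier ones and the Ncoa3 arrays at 2, 4 and 10 h sit below the baseline arrays; heights are not comparable between panels.

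A further Ncoa2 probe set moved the same way. Probe set 1435234_PM_at averaged 6.69, 6.67 and 6.71 at baseline, 1 h and 2 h, and 7.15, 7.27 and 7.25 at 4, 10 and 24 h. Its change against baseline was 0.46 ± 0.10 at 4 h (adjusted p = 0.00439), 0.58 ± 0.10 at 10 h (adjusted p = 0.000247) and 0.56 ± 0.10 at 24 h (adjusted p = 0.000349), with each probe set tested separately. The other Ncoa2 probe sets, 1446827_PM_at and 1450458_PM_at, had group means of 4.12 to 4.48 and 3.29 to 3.71, under the brightest nonspecific control, and none of their 5 changes against baseline passed the test. The call for Ncoa2 held in 29 of 29 alternative settings at each of 4, 10 and 24 h, with changes of 0.29 to 0.63, 0.26 to 0.69 and 0.26 to 0.56.

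Ncoa3, a coactivator gene amplified in some breast cancers (AIB1), moved less and in the other direction. Probe set 1448027_PM_at read 9.14, 9.01 and 9.33 at baseline, 9.05, 9.06 and 9.16 at 1 h and 8.96, 8.89 and 8.97 at 2 h. It read 8.98, 8.82 and 8.92 at 4 h, 8.88, 8.89 and 8.94 at 10 h and 8.91, 9.01 and 8.95 at 24 h. All arrays at 2, 4 and 10 h lay below all baseline arrays, while those at 1 h and 24 h overlapped with baseline. Ncoa3 fell by 0.26 ± 0.07 at 4 h (95% interval -0.40 to -0.12, adjusted p = 0.018) and by 0.26 ± 0.07 at 10 h (interval -0.40 to -0.12, adjusted p = 0.0108), that is to 0.84 of baseline at both times. The changes of -0.22 ± 0.07 at 2 h (adjusted p = 0.121) and -0.20 ± 0.07 at 24 h (adjusted p = 0.053) did not pass the test. With the replicate number added to the limma fit, both passed (adjusted p = 0.0363 and 0.0194). Both also passed after centring arrays on their medians (-0.32 each, adjusted p = 0.0369 and 0.00755), which moved the median of all genes to -0.09 and -0.11. A stricter filter on dim probe sets gave an adjusted p of 0.0411 at 24 h.

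Baseline replicate 3, at 9.33 the highest Ncoa3 array of the series, carries part of this difference: without it the change was -0.17 at 4 h (adjusted p = 0.165) and -0.17 at 10 h (adjusted p = 0.107). Without replicate 2 of 4 h the change at 4 h was -0.21 (adjusted p = 0.122), and without baseline replicate 2 the changes at 2 h and 24 h, -0.30 and -0.28, passed with adjusted p of 0.017 and 0.00864. The dimmer Ncoa3 probe set 1422737_PM_at averaged 7.42 at 4 h and 7.34 at 10 h, against 7.56 at baseline. Its changes of -0.14 ± 0.10 and -0.22 ± 0.10 pointed the same way and did not pass (adjusted p = 0.58 and 0.219). In the order of levels, baseline and 1 h did not differ beyond their spread, 24 h lay 0.13 below 1 h, and 24, 2, 4 and 10 h stood within their spread.

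Ncoa1, the founding member of the steroid receptor coactivators, read 8.24, 8.30 and 8.30 at baseline, 8.24, 8.26 and 8.34 at 1 h and 8.31, 8.36 and 8.29 at 2 h (probe set 1434515_PM_at). It read 8.26, 8.44 and 8.49 at 4 h, 8.32, 8.53 and 8.58 at 10 h and 8.45, 8.32 and 8.39 at 24 h. The 10 h and 24 h arrays lay above all baseline arrays, and those at 1, 2 and 4 h overlapped with them. The largest difference was 0.20 ± 0.07 at 10 h, with a 95% interval of 0.05 to 0.35 and an adjusted p of 0.076. Replicate 1 of 10 h was the low array, and without it the difference was 0.28 with an adjusted p of 0.0131. With the replicate number added to the limma fit, the difference of 0.20 at 10 h passed (adjusted p = 0.0382). The dimmer probe set 1418594_PM_a_at gave 0.21 ± 0.11 at 10 h (adjusted p = 0.281).

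The changes of these 3 related coactivators were set against each other within each array, which removes what an array does to all its probe sets alike. The Ncoa2 minus Ncoa3 difference averaged 0.08 ± 0.16 (SD, n = 6) at 10 and 24 h, against -0.67 ± 0.09 (SD, n = 3) at baseline, an unequal change of 0.75 (exact two-sided permutation test, p = 0.0238, adjusted 0.0286 over 6 tests). Over all 15 treated arrays the same difference averaged -0.12 ± 0.32, a change of 0.55 (exact p = 0.00735, adjusted 0.0286). Ncoa2 minus Ncoa1 averaged 0.58 ± 0.08 at 10 and 24 h, against 0.21 ± 0.07 at baseline, a change of 0.37 (exact p = 0.0238, adjusted 0.0286), and its change over all 15 treated arrays, 0.26, did not pass (exact p = 0.0515, adjusted 0.0515). It passed without replicate 2 of 2 h, replicate 3 of 1 h or replicate 3 of 2 h, with adjusted p of 0.0265, 0.0238 and 0.0441. Ncoa1 minus Ncoa3 changed by 0.38 at 10 and 24 h (exact p = 0.0238, adjusted 0.0286) and by 0.29 over all treated arrays (exact p = 0.0172, adjusted 0.0286). The 6 tests are not independent, since the pairs share genes and the 10 and 24 h arrays are among the 15 treated ones. With 3 baseline arrays, 0.0238 is the smallest p that the test of 10 and 24 h can give and 0.00245 the smallest for all treated arrays. With 1 baseline array left out, the test of 10 and 24 h cannot give a p under 0.0714, so its calls are lost by design; the changes were then 0.33 to 0.40 for Ncoa2 minus Ncoa1, 0.71 to 0.79 for Ncoa2 minus Ncoa3 and 0.31 to 0.47 for Ncoa1 minus Ncoa3. Over all treated arrays, Ncoa2 minus Ncoa3 then changed by 0.51 to 0.60 and Ncoa1 minus Ncoa3 by 0.22 to 0.38, with adjusted p of 0.0857 to 0.103. The marrow came from 3 mice and the labels do not tie arrays to animals. Treated arrays may therefore share animals with baseline arrays and with each other. These tests do not take this into account, and n counts arrays, not animals. Nor did any pair pass with the probe set of largest variance or the mean of a gene's probe sets in place of the brightest.

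Crebbp, the acetyltransferase CBP that the steroid receptor coactivators bring to the receptor, had no called change. Its only named probe set, 1436983_PM_at, read 8.68, 8.89 and 8.92 at baseline, 8.74, 8.72 and 8.67 at 1 h and 8.84, 8.71 and 8.62 at 2 h. It read 8.73, 8.71 and 8.81 at 4 h, 8.72, 8.85 and 8.63 at 10 h and 8.76, 8.82 and 8.84 at 24 h. At every time the treated arrays overlapped with baseline, and no neighbouring levels differed beyond their spread. The 5 changes ran from -0.12 to -0.02, each with a standard error of 0.07 and with 95% intervals between -0.27 and 0.12, so that a fall of up to 0.27 is within the error.

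Med1, the Mediator subunit that binds nuclear receptors, read 8.65, 9.02 and 8.88 at baseline, 8.74, 8.82 and 8.76 at 1 h and 8.79, 8.73 and 8.77 at 2 h (probe set 1448708_PM_at). It read 8.65, 8.63 and 8.77 at 4 h, 8.78, 8.74 and 8.60 at 10 h and 8.75, 8.83 and 8.77 at 24 h. The baseline arrays were spread more widely than any treated group and overlapped with all of them. The largest difference was -0.17 ± 0.07 at 4 h (95% interval -0.32 to -0.02, adjusted p = 0.211), and no change passed. Baseline replicate 1 was the lowest baseline array: without it, the change was -0.27 at 4 h (adjusted p = 0.019) and -0.24 at 10 h (adjusted p = 0.0232), and both passed. The change at 10 h also passed after centring arrays on their medians (-0.26, adjusted p = 0.0424), which moved the median of all genes to -0.11. Of the other Med1 probe sets, 1421906_PM_at and 1421907_PM_at gave -0.25 ± 0.15 and -0.14 ± 0.08 at 4 h with no call, and the remaining pair, with group means of 3.44 to 4.03, lay under the brightest nonspecific control.

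Nrip1, a corepressor that binds hormone-bound receptors and in mouse macrophages also acts as a coactivator of NF-kappaB, was variable between replicates. It had no called change in the fit used here, which leaves out the replicate number. Probe set 1434384_PM_at read 8.04, 8.07 and 8.29 at baseline, 8.09, 8.18 and 8.24 at 1 h and 7.73, 8.12 and 8.10 at 2 h. It read 8.23, 8.17 and 8.40 at 4 h, 8.18, 8.16 and 8.46 at 10 h and 8.36, 8.25 and 8.48 at 24 h. Replicate 1 of 2 h, at 7.73, was the lowest array of the series, and each treated group overlapped with baseline. The largest difference from baseline was 0.23 ± 0.10 at 24 h (95% interval 0.02 to 0.44, adjusted p = 0.163). The step from 2 h to 4 h measured 0.28 ± 0.10, with no overlap between the 2 groups and an adjusted p of 0.225. With the replicate number added to the limma fit, the changes at 24 h and from 2 h to 4 h passed (adjusted p = 0.0352 and 0.0296). The F test over all times then passed too (adjusted p = 0.00403). A further probe set, 1449089_PM_at, averaged 7.96 at 24 h, against 7.69 at baseline, a difference of 0.27 ± 0.09 (adjusted p = 0.057). Probe set 1418469_PM_at averaged 7.45 at 24 h, against 7.38 at baseline, a difference of 0.07 ± 0.12 (adjusted p = 0.819), and 1447211_PM_at, with group means of 3.29 to 3.47, lay under the brightest nonspecific control.

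**Figure D2:**
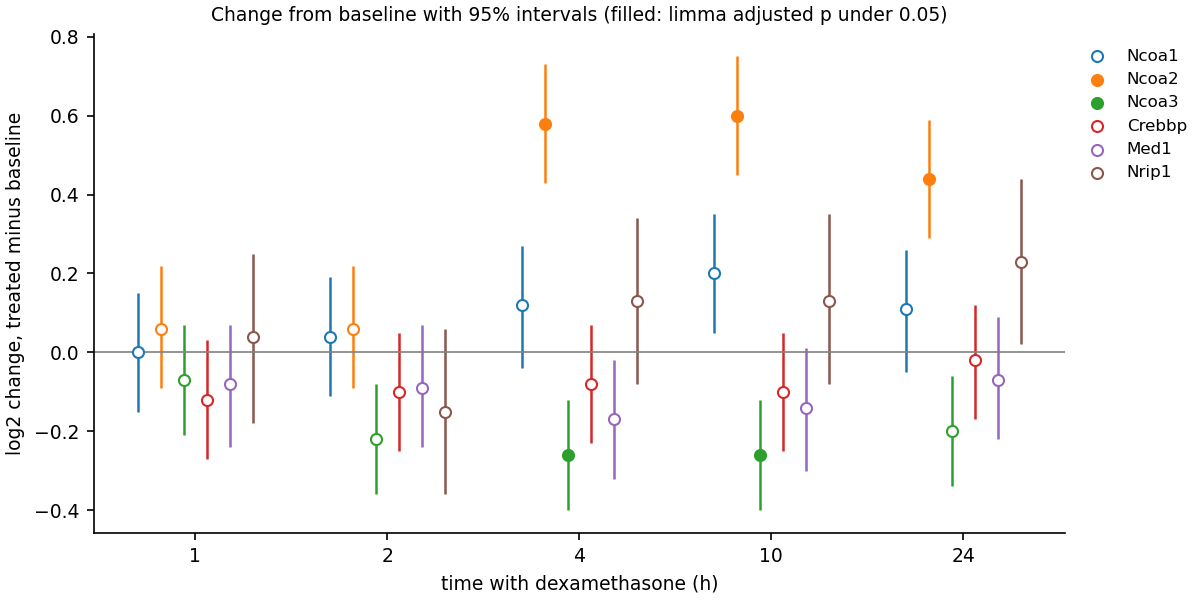
Log2 change from baseline of each coregulator at 1, 2, 4, 10 and 24 h of dexamethasone, with 95% intervals from limma and filled symbols for changes past an adjusted p of 0.05. Ncoa2 is past it at 4, 10 and 24 h on the higher side and Ncoa3 at 4 and 10 h on the lower side; all other intervals come from changes that did not pass.

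Counted over the 6 genes, 0 were called at 1 h, where 0.387% of all tested genes were called (0.303% higher and 0.0834% lower), and 0 at 2 h, where 2.15% were (1.57% higher and 0.576% lower). An unadjusted limma p under 0.05 was reached by 0 of the 6 at 1 h, by 1 at 2 h and by 3 at each of 4, 10 and 24 h. The share of all genes with such a p was not counted, so these unadjusted counts have no background beside them. At 4 h 1 was higher and 1 lower, where 7.52% of all genes were called, 4.5% higher and 3.03% lower. The same held at 10 h, where 14.4% were called, 8.29% higher and 6.16% lower. At 24 h 1 was higher, where 12.7% were called, 7.38% higher and 5.34% lower. The F test over all times called Ncoa2 (adjusted p = 1.27e-07) and Ncoa3 (adjusted p = 0.0233), where it called 17.4% of all genes. The median change of the 6 genes lay between -0.10 at 2 h and 0.04 at 24 h, and that of all genes was 0.01 at both times. With 6 genes, a single call makes up 16.7% of them, so these shares are too coarse to set apart from the background. Between successive times the rise of Ncoa2 from 2 h to 4 h was the only call, with 1.12% of all genes called from 1 h to 2 h, 4.18% from 4 h to 10 h and 2.16% from 10 h to 24 h. For the other 3 steps, an unadjusted p under 0.05 was reached by 1, 0 and 1 of the 6 genes, again with no share of all genes counted.

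**Figure D3:**
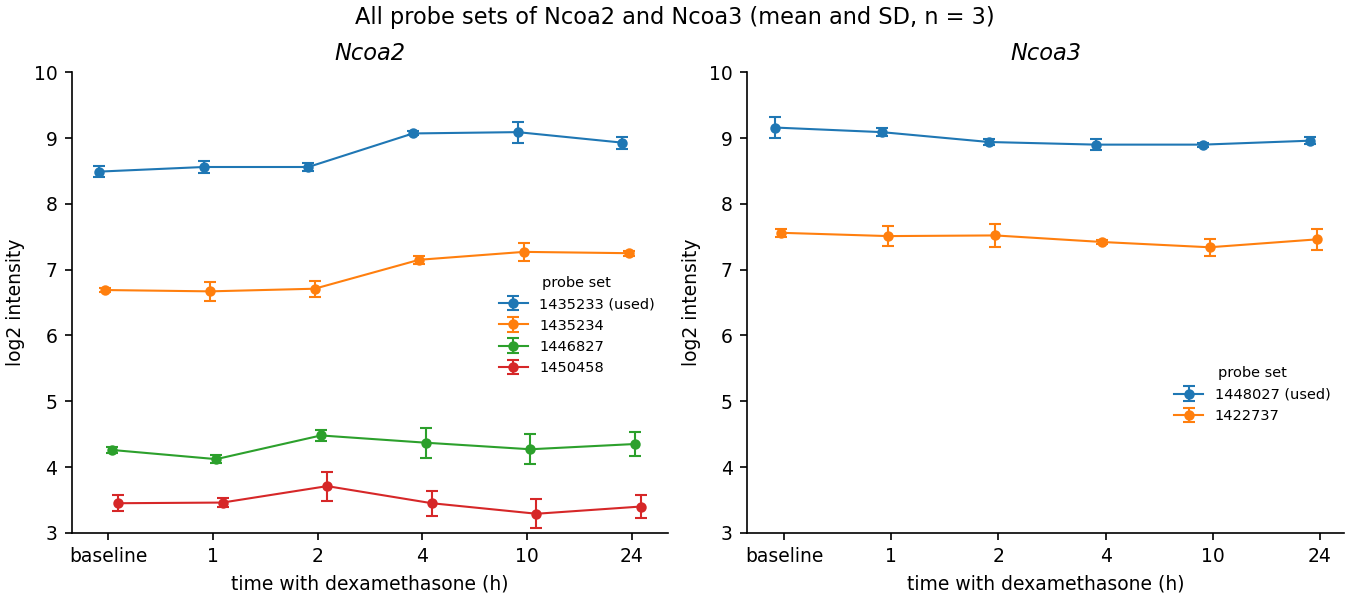
Mean log2 intensity and SD (n = 3 arrays) of every probe set of Ncoa2 (left) and Ncoa3 (right) at baseline and at 1, 2, 4, 10 and 24 h of dexamethasone. The 2 brighter Ncoa2 probe sets step up between 2 h and 4 h, at 9.07 and 7.15 at 4 h against 8.49 and 6.69 at baseline, and the 2 dim ones stay between 3.29 and 4.48; heights are not comparable between probe sets.

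The genes whose 5 changes came closest to those of Ncoa2, by the root mean square difference over the 5 times, were Npc1 (0.06), Sort1 (0.067) and Cdkn1b (0.077). Npc1, the lysosomal cholesterol exporter, was 0.02, 0.09, 0.47, 0.55 and 0.41 higher than baseline at 1, 2, 4, 10 and 24 h. Sort1, the sorting receptor sortilin, and Cdkn1b, the cyclin-dependent kinase inhibitor p27, were each called at 3 times, as were Npc1 and Ncoa2. Closest to Ncoa3 were Tmem140 (0.029), Rilpl2 (0.03) and Gmfb (0.03), of which Tmem140 and Gmfb were called at 0 times and Rilpl2 at 3.

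Beyond the named members, 112 further coregulators were listed by complex, of which 97 were tested. Called higher and lower were 1 and 0 of them at 1 h, 2 and 1 at 2 h, 5 and 5 at 4 h, 8 and 10 at 10 h, and 5 and 4 at 24 h. That was 1.0%, 3.1%, 10.3%, 18.6% and 9.3% of them at 1, 2, 4, 10 and 24 h. Of all genes, 0.387%, 2.15%, 7.52%, 14.4% and 12.7% were called at these times. Over all times 25 of 97 (25.8%) were called at least once, where 20.5% of all genes were. Their median change lay between -0.01 and 0.04 at every time. Leaving out replicate 2 of 4 h took the count at 4 h to 5, and leaving out replicate 2 of 24 h took the count at 24 h to 5. The share of all genes called depends on the filter on dim probe sets. With a stricter filter, 1042, 1944 and 1738 of 9047 genes were called at 4, 10 and 24 h. With the filter used here these were 992, 1905 and 1678 of 13190. The 20.5% given above and for the lists below was not recounted with the stricter filter.

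Of the other NCOA genes and PGC1-type coactivators, 4 of 5 tested (80.0%) were called at some time, against 20.5% of all genes. Of these, 3 are named here. Ncoa5, which can act as coactivator or corepressor, had the largest change of any coregulator named here: it read 6.94, 6.70 and 6.65 at 4 h, against 5.50, 5.39 and 5.34 at baseline. Its rise was 0.94 at 2 h, 1.36 ± 0.13 at 4 h (adjusted p = 5.66e-08), 0.78 at 10 h and 0.44 at 24 h. Pprc1, a coactivator related to PGC1, fell by 0.35 ± 0.09 at 10 h (adjusted p = 0.00909). Ncoa7 was 0.32 ± 0.09 higher at 24 h (adjusted p = 0.0161), a call lost without replicate 2 or 3 of either group (adjusted p of 0.0516 to 0.0806) and after centring (0.20, adjusted p = 0.129).

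Of the acetyl and methyltransferase coactivators, 3 of 10 (30.0%) were called at some time, against 20.5% of all genes. Prmt1, the main arginine methyltransferase of histone H4, read 9.16, 9.32 and 9.31 at 10 h, against 9.87, 9.64 and 9.71 at baseline, and fell by 0.47 ± 0.06 (adjusted p = 2.81e-06). Prmt2 fell by 0.50 ± 0.09 at 24 h (adjusted p = 0.000439). Kat2b, the acetyltransferase PCAF, was 0.31 ± 0.06 higher at 24 h (adjusted p = 0.00111), a call lost with its probe set of largest variance (0.37, adjusted p = 0.254) and after centring (0.19, adjusted p = 0.0695).

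Of the SWI/SNF remodelling subunits, 2 of 10 (20.0%) were called at some time, against 20.5% of all genes. Smarca2, the ATPase BRM, was 0.62 ± 0.11 higher at 10 h (adjusted p = 0.000144), though its probe set of largest variance gave 0.36 with an adjusted p of 0.324. Actl6a, an actin-related subunit, fell by 0.19 ± 0.06 at 10 h (adjusted p = 0.0393), a call lost without any 1 of the 6 arrays compared (adjusted p of 0.0593 to 0.0998). Its probe set of largest variance gave -0.03 (adjusted p = 0.927) and the mean of its probe sets -0.11 (adjusted p = 0.323).

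Of the Mediator subunits and kinase module, the complex of Med1, 8 of 29 (27.6%) were called at some time, against 20.5% of all genes. Cdk19, a kinase of that module, read 9.11, 8.89 and 9.0 at 10 h, against 8.69, 8.60 and 8.62 at baseline, a rise of 0.36 ± 0.07 (adjusted p = 0.000484). At 24 h its arrays lay below all baseline arrays, a change of -0.19 ± 0.07 that did not pass (adjusted p = 0.0798). Med13l fell by 0.35 ± 0.09 at 4 h (adjusted p = 0.00977), lost without replicate 1 of 4 h or baseline replicate 3 (adjusted p = 0.0589 and 0.0894) and with its probe set of largest variance (-0.27, adjusted p = 0.133). Med13 was 0.32 ± 0.10 higher at 10 h (adjusted p = 0.0362), lost without baseline replicate 2, or replicate 2 or 3 of 10 h (adjusted p of 0.0849 to 0.215), and -0.12 with its probe set of largest variance. The mean of its probe sets gave 0.13 (adjusted p = 0.318) and centring 0.20 (adjusted p = 0.177).

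Of the NCoR/SMRT complex, the partners of Ncor1, 1 of 3 tested (33.3%) was called at some time, against 20.5% of all genes. Tbl1x, the subunit that helps exchange corepressors for coactivators, read 9.19, 9.12 and 9.10 at 10 h, against 8.45, 8.69 and 8.54 at baseline. Its rise was 0.57 ± 0.08 (adjusted p = 9.3e-06), and it was 0.41 at 4 h and 0.37 at 24 h; its probe set of largest variance gave 0.37 at 10 h with an adjusted p of 0.408.

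Of the other corepressors, 4 of 19 (21.1%) were called at some time, against 20.5% of all genes. Hdac5, a histone deacetylase, was 0.40 ± 0.10 higher at 10 h (adjusted p = 0.00613), a call lost after centring arrays on their medians (0.28, adjusted p = 0.0513). Tle1, a Groucho-type corepressor, fell by 0.50 ± 0.15 at 10 h (adjusted p = 0.0274), lost without replicate 1 or 2 of 10 h or without baseline replicate 1 or 3 (adjusted p of 0.0903 to 0.111). Rcor1, of the CoREST complex, differed from baseline by -0.23, -0.19, -0.24, -0.17 and -0.23 at 1, 2, 4, 10 and 24 h, of which the change at 24 h passed (adjusted p = 0.0477, arrays overlapping with baseline) and the one at 4 h did not (adjusted p = 0.0535, called in 10 of 29 settings).

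Of the other receptor-binding coregulators, 3 of 21 (14.3%) were called at some time, against 20.5% of all genes. Cited2 and Pnrc1 were called earlier than any member. Cited2, a binding partner of CBP, read 10.28, 10.32 and 10.45 at 1 h, against 9.77, 9.69 and 9.88 at baseline. It rose by 0.57 ± 0.08 at 1 h (adjusted p = 7.41e-05), was 0.46 and 0.43 higher at 2 and 4 h, and was 0.17 above baseline at 10 h, which did not pass. Ddx5, an RNA helicase that also acts as a coactivator, fell by 0.27 ± 0.04 at 4 h (adjusted p = 0.000132). Pnrc1, a proline-rich coregulator, was called in both directions. It changed by -0.20 ± 0.05 at 2 h (adjusted p = 0.0171) and by 0.26 ± 0.05 at 10 h (adjusted p = 0.000452). The call at 10 h was lost with the mean of its probe sets (0.14, adjusted p = 0.246) and after centring (0.14, adjusted p = 0.154).

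**Figure D4:**
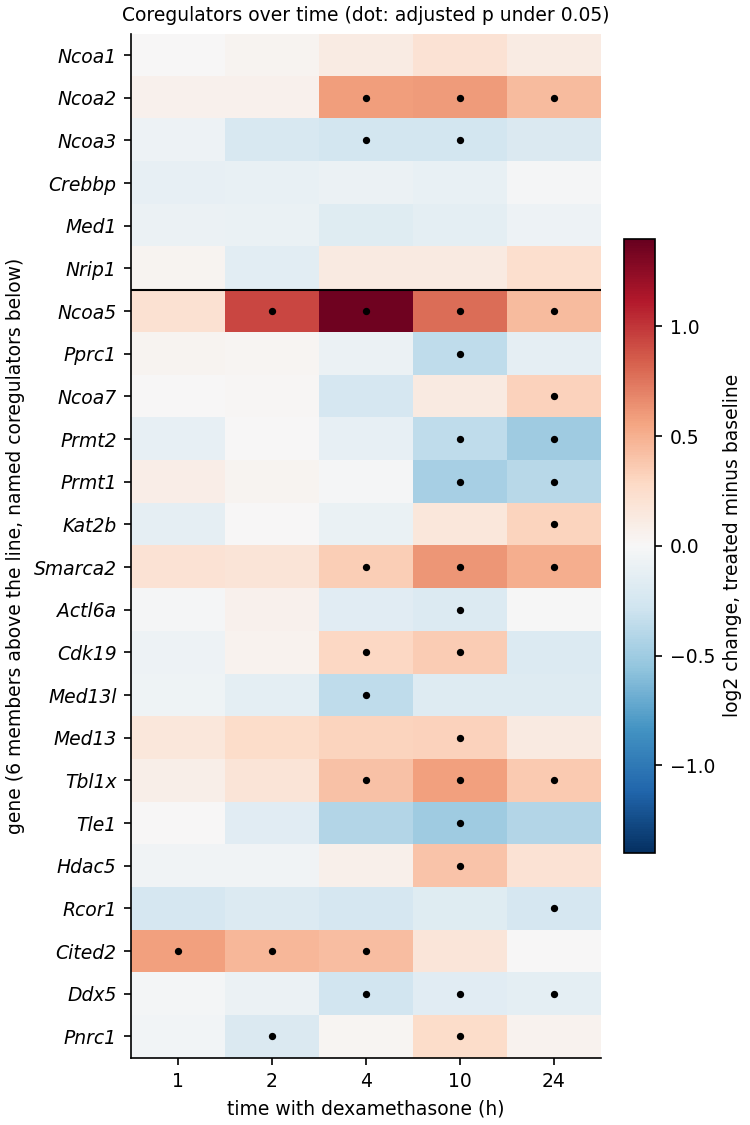
Log2 change from baseline at each time for the 6 members and the coregulators named from each list, as a colour scale with called changes marked. The Ncoa5 cells at 2, 4 and 10 h hold the largest changes, at 0.94, 1.36 and 0.78, and Cited2 is marked from 1 h to 4 h, before Ncoa2 is.

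The receptor that these coregulators serve under dexamethasone is encoded by Nr3c1, which read 8.17, 8.27 and 8.17 at 4 h, against 8.49, 8.54 and 8.37 at baseline. It fell by 0.27 ± 0.08 (adjusted p = 0.0492), a call lost in 18 of 29 alternative settings. Its probe set of largest variance gave -0.10 (adjusted p = 0.882) and the mean of its probe sets -0.19 (adjusted p = 0.21). The adjusted p was 0.0634 to 0.189 without baseline replicate 1 or 2 or any array of 4 h, and 0.053 to 0.0606 without an array of other times (replicate 2 of 1 h, each of 2 h, replicate 3 of 10 h, replicate 1 or 3 of 24 h). Tsc22d3, Per1 and Dusp1, known targets of the receptor, were 2.45 higher at 10 h, 2.54 higher at 2 h and 3.36 higher at 1 h.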

How the data were processed

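Per the submitters' processing notes, intensities were made with RMA in the affy package, which subtracts background and makes array distributions alike; no versions are given. The deposited table holds 1 linear intensity per probe set and array, read from its values (5.37 to 15224). The deposited intensities were turned to log2 here. Tests used limma 3.58.1 in R 4.3.3: all 18 arrays, 1 mean per group, eBayes with an intensity trend, two-sided p, Benjamini-Hochberg over all 13190 genes within a comparison, threshold 0.05. Genes were kept where 3 or more arrays reached that array's 40th percentile. A run of 211 evenly stepped probe sets of baseline replicate 1, none from the genes described, was left out. Pairs used exact permutation tests (SciPy 1.17.1); 3 of 5 planned pairs had both genes named, so 6 tests were run in place of 10. Scripts were tested on simulated data, with changes given to 50 genes of each size at 24 h. The fit recovered 12% of changes of 0.25 on the log2 scale, 60% of 0.5, 98% of 1 and 100% of 2. Changes as small as most of those of the members can therefore be missed.

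Members, lists and tests were chosen with earlier results of these data known. Named by rule were all members; per list, up to 3 called coregulators with the largest change; the 3 genes closest in course to each called member; and 5 check genes. Replicates are biological per the series text, which does not tie numbers to mice; p-values measure the spread between arrays, and the number of arrays limits the precision. Alternatives covered probe set choice, filters, centring, trend, samples in the fit, a replicate block, p adjustment, the stepped run and each array left out; separate probe sets and the alternatives for named coregulators were added after seeing the data.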

Additional observations from a re-analysis of the deposited data

How the results depend on the processing

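The 3 calls for Ncoa2 held in 29 of 29 settings, single probe sets apart, and the limits lie mainly in the other genes and in having 3 baseline arrays. Of the 6 members, 1 was called at 2 h after centring arrays on their medians (0 as reported), 1 at 4 h with the probe set of largest variance, the mean of all named probe sets, no intensity trend or only the groups compared (2 as reported), and 1 at 10 h with the probe set of largest variance or only the groups compared (2 as reported). At 24 h 2 were called with a stricter filter on dim probe sets or centring (1 as reported); from 2 h to 4 h 0 with the mean of probe sets (1 as reported); and by the F test 1 with the largest variance, the mean of probe sets or no trend (2 as reported). Of the 97 other coregulators, the largest-variance probe set gave 6 calls at 4 h, 9 at 10 h and 5 at 24 h (10, 18 and 9 as reported), only the groups compared gave 11 at 10 h, and centring gave 19 at 24 h. Calls over all genes moved too. The largest-variance probe set gave 719, 1419 and 1343 of 12727 at 4, 10 and 24 h (992, 1905 and 1678 of 13190 as reported). Only the groups compared gave 849 at 4 h and 1257 at 10 h, and no intensity trend gave 802 at 4 h. The mean of probe sets gave 839 of 12447 at 4 h and 157 from 2 h to 4 h (251 as reported). Over all genes, centring gave 311 at 2 h (283 as reported) and 2408 at 24 h. Centring moved the median change of all genes to -0.03, -0.09, -0.08, -0.11 and -0.11 at 1, 2, 4, 10 and 24 h and turned the split of called genes at 24 h to 496 higher and 1912 lower, against 973 and 705 as reported; relative to that median Ncoa2 was 0.57, 0.59 and 0.43 higher at 4, 10 and 24 h and Ncoa3 -0.27 at 4 and 10 h. With the largest-variance probe set, Ncoa2 minus Ncoa1 changed by 0.43 at 10 and 24 h (adjusted p = 0.143), Ncoa2 minus Ncoa3 by 0.43 over all treated arrays (0.157) and 0.73 late (0.143), and Ncoa1 minus Ncoa3 by 0.20 (0.233) and 0.30 (0.174), all by exact permutation; with the mean of probe sets these were 0.11 (0.171), 0.34, 0.45, 0.25 and 0.34 (0.0714 each). Signs of changes that were not called turned for Ncoa1 (centred -0.03, -0.06 and -0.02 at 1, 2 and 24 h; largest variance -0.04 and mean -0.001 at 2 h), Ncoa2 (largest variance and mean -0.02 at 1 h; centred -0.03 at 2 h) and Nrip1 (largest variance -0.22 and mean -0.02 at 1 h; largest variance -0.09 at 4 h); the called change of Med13 at 10 h turned to -0.12 with the largest variance. Among separate probe sets, signs turned for Ncoa1 1418594_PM_a_at at 2 h (-0.04), Ncoa2 1435234_PM_at at 1 h (-0.02), 1446827_PM_at at 1 h (-0.14) and 1450458_PM_at at 4, 10 and 24 h (-0.001, -0.16 and -0.05), Nrip1 1418469_PM_at at 1 and 4 h (-0.22 and -0.09) and 1447211_PM_at at 2 h (0.15), and Med1 1453972_PM_x_at at 1, 10 and 24 h (0.11, 0.09 and 0.19). With 1 array left out, members called ranged from 0 to 0 at 1 h, 0 to 1 at 2 h (1 without baseline replicate 2), 1 to 3 at 4 h (1 without replicate 2 of 4 h or baseline replicate 3), 1 to 3 at 10 h (1 without baseline replicate 3), 1 to 2 at 24 h (2 without baseline replicate 2), 1 to 1 from 2 h to 4 h, 0 to 0 for the other steps and 1 to 2 by the F test (1 without baseline replicate 1 or 3). Other coregulators called ranged from 1 to 1, 2 to 3, 5 to 11, 12 to 17 and 5 to 11 at 1, 2, 4, 10 and 24 h. The pair changes ranged from 0.22 to 0.29 and 0.33 to 0.40 for Ncoa2 minus Ncoa1 (all treated, then late), 0.51 to 0.60 and 0.70 to 0.79 for Ncoa2 minus Ncoa3, and 0.22 to 0.38 and 0.31 to 0.47 for Ncoa1 minus Ncoa3. With 1 array left out, changes that were not called spanned 0 at 1 h for Ncoa1 (-0.03 to 0.02), Ncoa3 (-0.15 to 0.01), Nrip1 (-0.01 to 0.12) and Med1 (-0.18 to 0.003) and at 24 h for Crebbp (-0.10 to 0.02) and Med1 (-0.17 to 0.02). In these cases the cause was not tested. Keeping the stepped run, or taking it as missing on that array, dropping the filter, and adjusting over all times together changed no member's call.

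The labels do not tie replicate numbers to mice, and the numbers were not taken as pairs, since 35 of the 45 same-numbered array pairs, and not all of them, had deviations that correlated over 0.1 (range 0.0236 to 0.29, median 0.155; for the 90 pairs of different numbers the median was -0.0794 and the highest 0.076). The cut of 0.1 was a choice, and even the lowest same-numbered correlation, 0.0236, was positive. As a hint from the data, 18 of 18 arrays correlated best with their own number. The limma fit used here and the pair tests leave the number out, and the calls added below depend on that choice. With the replicate block, members called were 1 at 2 h, 3 at 24 h and 2 from 2 h to 4 h, and other coregulators called were 2 at 1 h and 14 at 24 h. Calls over all 13190 genes rose too, to 93 at 1 h, 432 at 2 h and 2250 at 24 h (51, 283 and 1678 as reported). From 2 h to 4 h they rose to 500 (251 as reported). The member calls added by the block were Ncoa3 at 2 h (adjusted p = 0.0363) and 24 h (0.0194), Ncoa1 at 10 h (0.0382), and Nrip1 at 24 h (0.0352), from 2 h to 4 h (0.0296) and by the F test (0.00403).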
